A study of Homo sapiens with 6 samples.

Results

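Heat shock proteins and their DNAJ co-chaperones were examined in MDA-MB-231 cells, a human triple-negative breast cancer line, with and without overexpression of LARP6, a La-related protein that binds RNA. The genes were taken by symbol from the deposited read count table. They are the protein-coding genes whose symbols begin with HSPA, HSPB, HSP90A or DNAJ, together with HSPD1, HSPE1, HSPH1, BAG3, CRYAB, HSF1, STIP1 and AHSA1. The endoplasmic reticulum stress genes HSPA5, DNAJB9, DNAJB11 and DNAJC3 were left out of this set. This gave 73 of the 28675 genes in the table, of which 62 passed the filter on low counts and were tested. RNA was sequenced from 3 libraries of LARP6-overexpressing cells (LARP6 libraries) and 3 libraries of cells carrying a no-load control (control libraries). All 6 libraries came from the same line, and the labels do not give the vector, the promoter, the number of clones or whether the libraries of a group were separate cultures. The p-values therefore rest on library-to-library spread, which could be technical alone.

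Depth was 29409101 to 31648120 counts in the LARP6 libraries and 29723790 to 33387050 in the control libraries. LARP6 itself stood at 1995, 2198 and 2131 CPM (counts scaled to a common library size by TMM) in LARP6 libraries 1, 2 and 3, against 44.2, 40.7 and 43.3 CPM in control libraries 1, 2 and 3, so each library matched its label. Markers of this mesenchymal-like line were present, with VIM at 575 FPKM in LARP6 libraries and 533 FPKM in control libraries (means; FPKM is the authors' read count divided by gene length and library size). VIM itself was higher in the LARP6 libraries (edgeR adjusted p = 0.0166, the test used below). Of the epithelial genes, KRT8 was also high, at 136 FPKM in LARP6 libraries and 133 FPKM in control libraries. EPCAM had 5.61 and 5.51 FPKM, CDH1 1.07 and 1.14 FPKM and the receptor gene ERBB2 4.73 and 4.85 FPKM, in the same order. The progesterone receptor gene PGR averaged 0.00667 FPKM in each group and the leukocyte gene PTPRC 0.0367 FPKM in each group. Libraries of the same group differed by more than sampling noise (chi-square per gene 2.05 to 3.64). Each library was counted as its own replicate, although this spread does not show that the libraries were separate cultures.

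Heat shock proteins are chaperones, named after the size of the protein, that keep other proteins folded. HSP70 proteins (HSPA genes) bind short exposed stretches of unfolded proteins in a cycle driven by ATP. J-domain proteins (DNAJ genes) deliver clients to HSP70 and trigger its ATPase, and nucleotide exchange factors such as HSPH1, BAG3 and HSPBP1 release the client. HSP90 takes over partly folded kinases and hormone receptors, HSP60 with HSP10 folds proteins inside mitochondria, and small heat shock proteins (HSPB genes, CRYAB) hold unfolded proteins without ATP. HSF1 is the transcription factor that induces many of these genes under stress, through inverted repeats of a GAA unit called heat shock elements. Cancer cells commonly use this system at high level without heat.

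The heat shock element was looked for in the RefSeq promoter windows of these genes (GRCh38.p14, 250 bases before to 50 after each listed start, 300 bases in all), because HSF1, which binds it, is one of the genes examined. Windows were held for 62 of the 73 genes. The motif with 3 units was searched as GAANNTTCNNGAA and its reverse complement TTCNNGAANNTTC, which covers both strands. No mismatch was allowed, so an element with an imperfect unit was not counted, and a gene without a match can still hold one. It was in a window of 7 of the 62 genes (11.3%), against 0.610% of the 27305 genes with a window. The shorter motif with 2 units, GAANNTTC or TTCNNGAA, each its own reverse complement and both contained in the longer one, was in 23 of the 62 (37.1%), against 16.2% of all genes. The matches with 3 units are shown with their flanks on the gene's strand, capitals marking the match.
DNAJA1, chr9:33025270-33025294, plus strand: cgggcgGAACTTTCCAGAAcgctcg
DNAJB6, chr7:157336867-157336891, plus strand: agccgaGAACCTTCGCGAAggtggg
HSP90AA1, chr14:102087114-102087138, minus strand: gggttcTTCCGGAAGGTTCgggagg
HSP90AB1, chr6:44247772-44247796, plus strand: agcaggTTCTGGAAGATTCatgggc
HSP90AB1, chr6:44247825-44247849, plus strand: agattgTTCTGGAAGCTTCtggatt
HSPA6, chr1:161524460-161524484, plus strand: gaaaggTTCGCGAAAGTTCgcggcg
HSPA8, chr11:123062173-123062197, minus strand: ggccccTTCTGGAAGGTTCtaagat
HSPA8, chr11:123062348-123062372, minus strand: gagcttGAAAGTTCCAGAAcgctgc
HSPD1, chr2:197500062-197500090, minus strand: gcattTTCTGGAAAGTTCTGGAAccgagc

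The HSPD1 match was the longest, with 18 bases, and lies inside the annotated span of its neighbour HSPE1 on the other strand. In this exact search the stress-inducible HSP70 genes HSPA1A and HSPA1B and the small heat shock protein gene HSPB1 held only the motif with 2 units. The windows of HSPA1A and HSPA1B are shown together because these copies are nearly identical, also around the match. The HSPA1A match is the same stretch of DNA as the match of HSPA1L, which starts from the other strand.
HSPA1A, chr6:31815431-31815450, plus strand: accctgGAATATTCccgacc
HSPA1B, chr6:31827627-31827646, plus strand: cccctgGAATATTCccgacc

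HSPB1 is shown over 121 bases, up to the base before its GENCODE v29 annotation, because it was the gene with the smallest p in the set. Its single match begins 182 bases before the RefSeq start.
HSPB1, chr7:76302423-76302543, plus strand: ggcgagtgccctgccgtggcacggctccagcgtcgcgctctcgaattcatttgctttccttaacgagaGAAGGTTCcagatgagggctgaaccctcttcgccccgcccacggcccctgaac

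A match of letters is a description of the sequence and does not show that HSF1 binds there. Of the 7 tested genes with the motif of 3 units, 0 were higher and 0 lower at the threshold used below, with log2 fold changes between -0.26 (HSPA6) and 0.04 (DNAJA1) and a median of 0.01. Of the 19 tested genes with the motif of 2 or 3 units, 0 were higher and 1 was lower (HSPB1), with a median log2 fold change of -0.03. Of the 36 tested genes with a window and without either motif, 1 was higher (DNAJB14) and 1 lower (HSPBP1), with a median of 0.02. Over all tested genes the shares were 2.43% higher and 3.60% lower, so counts this small do not set the classes apart. Genes with the 2-unit motif had a median level of 28.5 FPKM, and those without it 6.28 FPKM.

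The constitutive cytosolic chaperones stood highest. By the deposited FPKM, 6 genes stood at 100 FPKM or more, 23 between 10 and 100, 24 between 1 and 10, and 20 below 1 FPKM or outside the FPKM table. HSP90AB1, the constitutive cytosolic HSP90, was at 551.9, 552.4 and 564.8 FPKM in LARP6 libraries 1, 2 and 3, against 558.1, 553.4 and 556.4 FPKM in control libraries 1, 2 and 3. HSPA8, the constitutive cytosolic HSP70 (HSC70), was at 411.3, 404.4 and 400.2 FPKM in LARP6 libraries 1, 2 and 3, against 415.9, 404.8 and 399.8 FPKM in control libraries 1, 2 and 3. The 6 values of HSP90AB1 all lay above those of HSPA8, and in both genes the groups overlapped.

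The next levels were those of HSPB1 with a mean of 184 FPKM and HSP90AA1, the stress-responsive HSP90, with 181 FPKM over the 6 libraries, and the ranges of this pair overlapped. DNAJA1, a type I J-domain partner of cytosolic HSP70, and HSPE1, the mitochondrial HSP10, followed with means of 113 and 109 FPKM and also overlapped. STIP1, the adaptor that joins HSP70 to HSP90, had a mean of 70.2 FPKM, AHSA1, which activates the HSP90 ATPase, 59.4 FPKM, BAG3 57.8 FPKM and HSPD1, the mitochondrial HSP60, 54.4 FPKM. The highest DNAJB gene was DNAJB1, the main stress-inducible HSP40, with 28.5 FPKM, and the highest DNAJC gene was DNAJC8, a nuclear J-domain protein, with 46.3 FPKM. The plot of level by gene shows this order in each subfamily.

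The order rests on the gene length behind the FPKM. Counts and FPKM together imply a gene length, if the authors divided by the summed counts of each library, which the sources do not state. Another divisor would shift all these lengths together. The implied length was 1.097 to 5.717 times the longest GENCODE v29 transcript in the tested genes, with a median of 1.46. For HSPA8 the implied length was 5492 bases, against 2463 bases for its longest transcript, and for DNAJB1 it was 9273 against 2264 bases. Expressed as CPM per kilobase of the longest transcript, a scale added after the data had been seen, the order of the leading pair turned round. HSPA8 was then 1.29 ± 0.0257 times HSP90AB1 (SD over 6 libraries), against 0.730 ± 0.0146 times by FPKM. DNAJB1 was 0.129 times HSPA8 on that scale and 0.0701 times by FPKM. Differences between groups within a gene do not depend on this length.

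**Figure D1:**
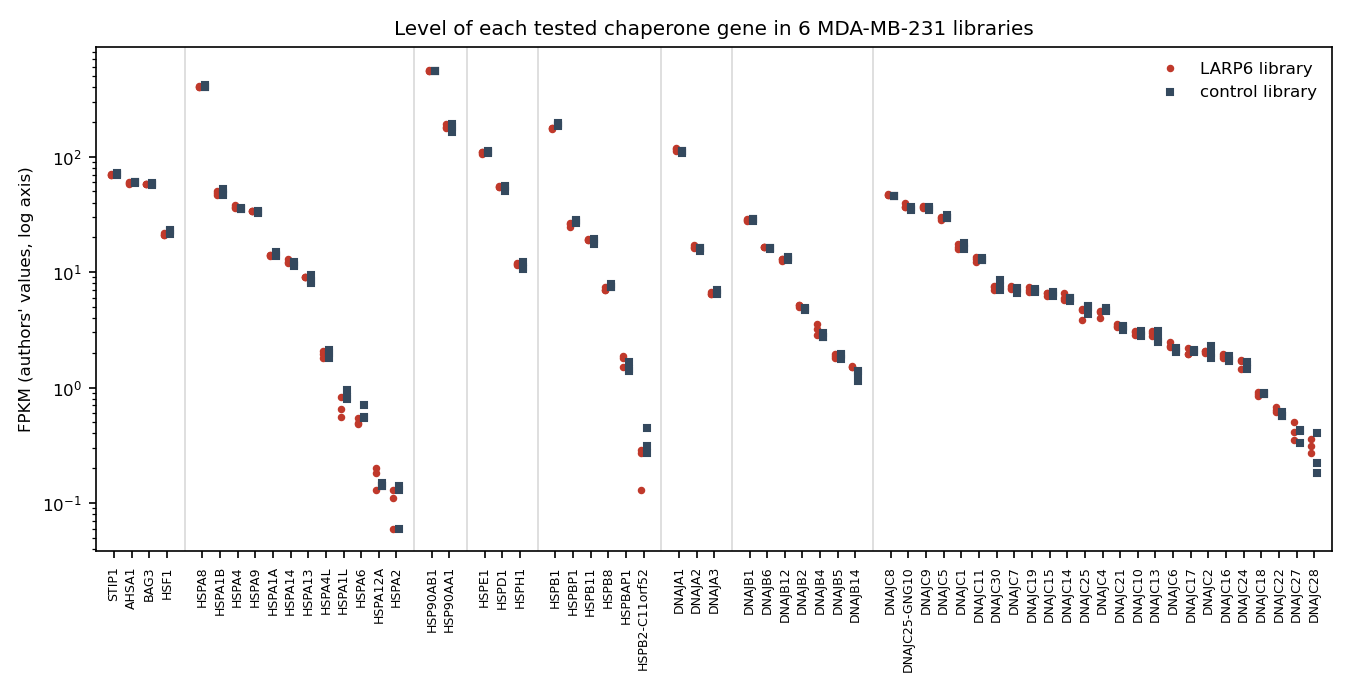
Deposited FPKM (log axis) of the tested chaperone genes, ordered by level within each subfamily, with the 3 LARP6 libraries as circles and the 3 control libraries as squares. HSP90AB1 and HSPA8 stand above 399 FPKM in every library, and within a gene the libraries lie close together except at the lowest levels.

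The 11 genes that were not tested had 1 to 33 counts over the 6 libraries together. CRYAB, a small heat shock protein best known from the lens and muscle, had 2 counts in the LARP6 libraries and 2 in the control libraries. The others were DNAJA4, DNAJB7, DNAJB13, DNAJC5B, DNAJC12, HSPA12B, HSPB2, HSPB3, HSPB6 and HSPB9. HSPB6, which encodes a small heat shock protein of muscle, had 2, 4 and 2 counts in LARP6 libraries 1, 2 and 3, against 11, 5 and 9 in control libraries 1, 2 and 3. HSPA12B, an endothelial HSP70-like gene, had 2, 0 and 3 counts in LARP6 libraries 1, 2 and 3, against 4, 2 and 15 in control libraries 1, 2 and 3. These counts are too low for a statement on either gene at this depth.

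Most chaperone genes in the LARP6 libraries stood within 10% of their level in the control libraries. Of the 62 tested genes, 1 rose, 3 fell and 58 were not called by edgeR's quasi-likelihood test (adjusted p below 0.05 by Benjamini-Hochberg, over the 16226 genes tested). At an unadjusted p under 0.05 there were 7 of the 62 chaperone genes and 3085 of the 16226 tested genes, which is a larger share. The shares called at the adjusted threshold were 1.61% higher and 4.84% lower, beside 2.43% higher and 3.60% lower of all tested genes, so the set was near the background in both directions. The median log2 fold change (LARP6 over control) was 0.00 in the chaperone genes and 0.00 in all tested genes, and 31 of the 62 had a value below 0. In 52 of the 62 the estimated change was under 10% in either direction (83.9%, beside 70.2% of all tested genes). These shares are not like for like, because the median SE on the log2 scale was 0.0505 in the chaperone genes and 0.0760 in all tested genes. The 95% interval of the change lay wholly within 10% in 27 of the 62 genes and within 20% in 51 of them. The LARP6 libraries lay wholly above the control libraries in 3 genes (4.84%, beside 10.6% of all tested genes) and wholly below in 8 (12.9%, beside 11.7%).

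All 73 genes together took 1.08%, 1.05% and 1.04% of counts in LARP6 libraries 1, 2 and 3, against 1.08%, 1.05% and 1.03% in control libraries 1, 2 and 3. Their summed level was 10634, 10456 and 10400 CPM in LARP6 libraries 1, 2 and 3, against 10799, 10622 and 10448 CPM in control libraries 1, 2 and 3, and the groups overlapped. The sum is dominated by the most abundant genes, and HSPA8 with HSP90AB1 made up 38.6% to 39.1% of it in the LARP6 libraries and 38.8% to 39.5% in the control libraries.

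**Figure D2:**
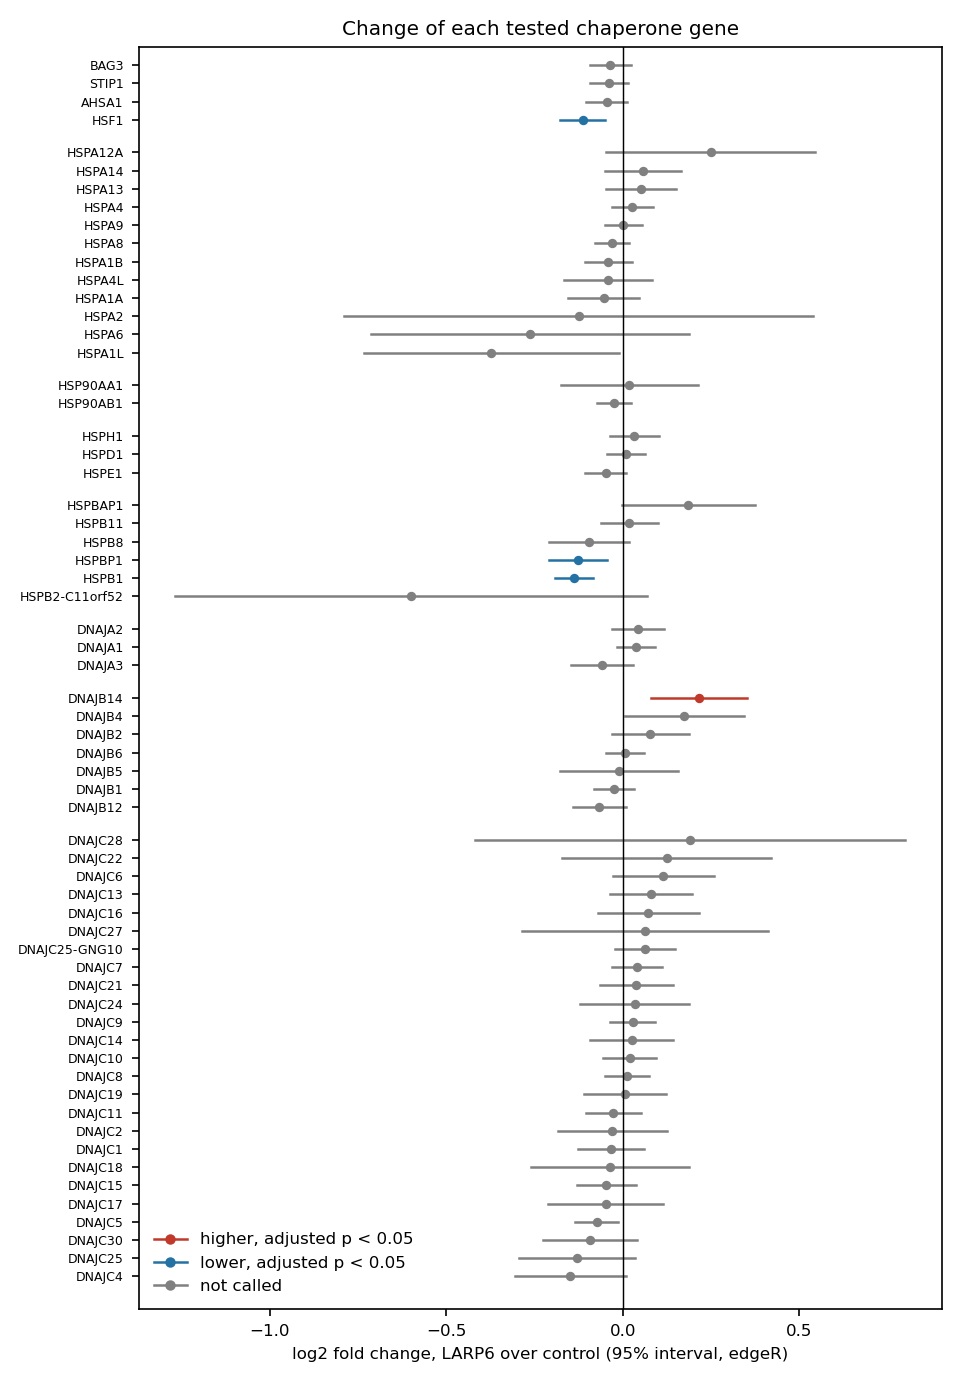
Log2 fold change of each tested chaperone gene (LARP6 over control, points) with its 95% interval from edgeR (lines), grouped by subfamily and ordered by change. HSF1, HSPBP1 and HSPB1 are lower and DNAJB14 is higher at the threshold. HSPB2-C11orf52 and HSPA2, both at about 1 CPM or less, have intervals of -58.5% to 4.98% and -42.2% to 45.5%.

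HSF1, the regulator of the heat shock response, was lower in the LARP6 libraries. It stood at 129.8, 124.7 and 123.6 CPM in LARP6 libraries 1, 2 and 3, against 136.6, 141.3 and 131.3 CPM in control libraries 1, 2 and 3. The groups did not overlap, and the gap between the highest LARP6 library and the lowest control library was small beside the spread within each group. The estimated log2 fold change was -0.11 ± 0.03 (SE; edgeR adjusted p = 0.0196), a change of -7.57% with a 95% interval of -11.6% to -3.32%. The call was lost without LARP6 library 2 (adjusted p = 0.126), LARP6 library 3 (0.0757), control library 1 (0.0531) or control library 2 (0.193), with scaling by library size only (0.101) and with an offset for each library's trend on GC content and transcript length (log2 fold change -0.07, adjusted p = 0.265).

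The inducible HSP70 genes HSPA1A and HSPA1B and the inducible HSP40 gene DNAJB1 were not called. HSPA1A stood at 38.4, 37.7 and 37.6 CPM in LARP6 libraries 1, 2 and 3, against 40.6, 38.3 and 39.0 CPM in control libraries 1, 2 and 3, with overlapping groups (change -3.66%, 95% interval -10.1% to 3.27%, edgeR adjusted p = 0.623). Its copy HSPA1B stood at 143.2, 137.4 and 132.4 CPM in LARP6 libraries 1, 2 and 3, against 149.4, 139.3 and 135.9 CPM in control libraries 1, 2 and 3 (change -2.74%, interval -7.04% to 1.77%, edgeR adjusted p = 0.557). These copies can share reads: 69.9% of the 100-base windows of the longest HSPA1A transcript also occur in HSPA1B, so the split between them is uncertain. DNAJB1 stood at 268.8, 259.9 and 257.2 CPM in LARP6 libraries 1, 2 and 3, against 269.2, 259.5 and 270.3 CPM in control libraries 1, 2 and 3 (change -1.66%, interval -5.38% to 2.20%, edgeR adjusted p = 0.704).

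BAG3, which links HSP70 to selective autophagy, stood at 177.6, 176.7 and 177.0 CPM in LARP6 libraries 1, 2 and 3, against 177.4, 182.6 and 184.1 CPM in control libraries 1, 2 and 3 (change -2.36%, interval -6.29% to 1.74%, edgeR adjusted p = 0.585). HSPA6, an HSP70 that is almost silent without stress, was at 1.28 to 1.44 CPM in LARP6 libraries and 1.46 to 1.87 CPM in control libraries. Its groups did not overlap, but at this level the interval ran from -39.0% to 13.8% (edgeR adjusted p = 0.579). In HSPA6, 27.6% of the windows also occur in the pseudogene HSPA7. STIP1 was at 359.0 to 363.5 CPM in LARP6 libraries and 365.8 to 376.5 CPM in control libraries, again without overlap (change -2.61%, interval -6.12% to 1.03%, edgeR adjusted p = 0.468). AHSA1 had an estimated change of -3.08% (interval -6.92% to 0.922%, edgeR adjusted p = 0.428).

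HSPB1 (HSP27), the main small heat shock protein of these cells, had the smallest p of the chaperone genes. It stood at 318.6, 324.6 and 323.5 CPM in LARP6 libraries 1, 2 and 3, against 365.1, 353.1 and 345.7 CPM in control libraries 1, 2 and 3. Every LARP6 library lay below every control library, and the distance between the groups exceeded the spread within either. The estimated log2 fold change was -0.14 ± 0.03 (SE; edgeR adjusted p = 0.000154), a change of -9.13% with a 95% interval of -12.5% to -5.68%. The gene spans 76302544 to 76304295 of chromosome 7, plus strand (GRCh38, GENCODE v29). Its call held with each of the 6 libraries left out in turn, at log2 fold changes of -0.15 to -0.12. It was lost with the GC and length offset, where the log2 fold change was -0.07 (adjusted p = 0.118). It was not called by limma on log2 FPKM (adjusted p = 0.143 to 0.303 over 3 settings), which did not call the other 3 genes of this set either.

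The HSPB genes and CRYAB made a group of 11 genes, of which 6 were tested, 2 fell and 0 rose. The share that fell was 33.3% of these few genes, beside 3.60% of all tested genes. HSPBP1, which carries an HSPB symbol but encodes a nucleotide exchange factor of HSP70, was the other one that fell. It stood at 63.9, 59.5 and 64.2 CPM in LARP6 libraries 1, 2 and 3, against 68.4, 70.3 and 66.0 CPM in control libraries 1, 2 and 3, with no overlap. The estimated log2 fold change was -0.13 ± 0.04 (SE; edgeR adjusted p = 0.0456). The call lay close to the threshold and was lost without LARP6 library 1 (0.0765), LARP6 library 2 (0.351), control library 1 (0.0958) or control library 2 (0.224), with library size only (0.149), with no low-count filter (0.0587), with DESeq2 (0.0990) and with the GC and length offset (log2 fold change -0.06, adjusted p = 0.512).

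HSPB8, the small heat shock protein that works with BAG3, was at 28.2 to 30.2 CPM in LARP6 libraries and 30.4 to 31.8 CPM in control libraries. Its groups did not overlap, and the test did not call it (change -6.37%, interval -13.4% to 1.24%, edgeR adjusted p = 0.374). HSPB11, an intraflagellar transport protein with an HSPB symbol, and HSPBAP1, a binding partner of HSPB1, had log2 fold changes of 0.02 and 0.19 with adjusted p of 0.856 and 0.271. The readthrough HSPB2-C11orf52 was below 1.1 CPM in every library, and 86.1% of its windows also occur in C11orf52.

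**Figure D3:**
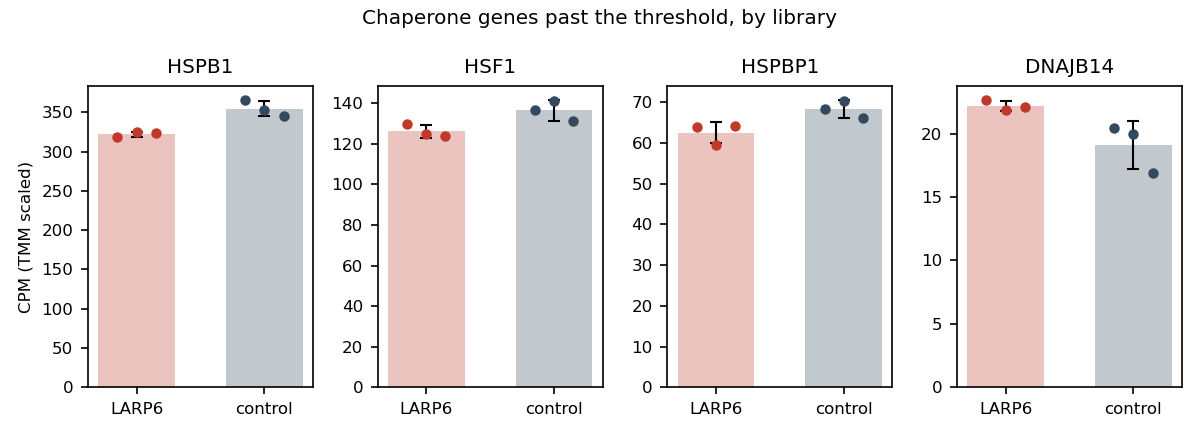
CPM of the 4 chaperone genes past the threshold in each library (points), with the group mean (bars from 0) and SD (error bars), LARP6 left of control. The groups do not overlap in any of the 4, and the differences are small against the level: about -9.13% in HSPB1 and 16.2% in DNAJB14.

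DNAJB14 was the chaperone gene that rose. It encodes a J-domain protein anchored in the endoplasmic reticulum membrane that recruits cytosolic HSP70 (HSC70) there. It stood at 22.6, 21.9 and 22.1 CPM in LARP6 libraries 1, 2 and 3, against 20.45, 19.96 and 16.91 CPM in control libraries 1, 2 and 3. The LARP6 libraries agreed closely, while control library 3 lay well below the other control libraries. The estimated log2 fold change was 0.22 ± 0.07 (SE; edgeR adjusted p = 0.0382), a change of 16.2% with a 95% interval of 5.78% to 27.7%. Without control library 3 it was 0.14 (adjusted p = 0.348), and the call was also lost without LARP6 library 1 (0.170), LARP6 library 2 (0.0933) or LARP6 library 3 (0.0689), with no low-count filter (0.0558), with DESeq2 (0.108) and with the GC and length offset (log2 fold change 0.10, adjusted p = 0.4998). The gene spans 99896248 to 99946726 of chromosome 4, minus strand.

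Of the 9 DNAJB genes, 7 were tested, 1 rose (14.3%, beside 2.43% of all tested genes) and 6 were not called. DNAJB12, the paralog of DNAJB14 in the same membrane, was at 77.7 to 81.9 CPM in LARP6 libraries and 81.4 to 85.9 CPM in control libraries, with overlapping groups and an estimate of -0.07 ± 0.04 on the log2 scale (SE; edgeR adjusted p = 0.345). DNAJB4 had the smallest p of the others, at 0.17 ± 0.09 (SE; edgeR adjusted p = 0.243). DNAJB6, a suppressor of aggregation of polyglutamine proteins, was at 275.5 to 279.8 CPM in LARP6 libraries and 273.4 to 280.0 CPM in control libraries. DNAJB2, at 32.7 to 34.4 CPM in LARP6 libraries and 31.1 to 32.6 CPM in control libraries, did not overlap and was not called (adjusted p = 0.462).

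Of the 4 DNAJA genes 3 were tested and 0 were called (0 at an unadjusted p under 0.05, 0 by DESeq2). The shares over all tested genes were 2.43% higher and 3.60% lower. DNAJA4 had 2 counts over the 6 libraries. DNAJA1 stood at 356.7, 348.0 and 333.6 CPM in LARP6 libraries 1, 2 and 3, against 339.6, 343.0 and 329.0 CPM in control libraries 1, 2 and 3, a change of 2.63% with an interval of -1.16% to 6.57% (edgeR adjusted p = 0.492). DNAJA2, its close relative, and DNAJA3, the mitochondrial J-domain protein, had log2 fold changes of 0.04 and -0.06.

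The DNAJC genes, which share only the J-domain and serve many separate machines, formed the largest subfamily. Of the 27 genes 25 were tested and 0 were called (0 by DESeq2), beside 2.43% higher and 3.60% lower of all tested genes. A count of 0 in so few genes is near that background. DESeq2 gave no adjusted p for DNAJC2, DNAJC4, DNAJC17, DNAJC18, DNAJC22, DNAJC24, DNAJC25, DNAJC27 and DNAJC28, so it could not call them. The log2 fold changes of the 25 tested genes ran from -0.15 to 0.19 with a median of 0.02, and 1 had an unadjusted p under 0.05. That one was DNAJC5, the cysteine string protein of secretory vesicles, at 175.8, 168.8 and 180.2 CPM in LARP6 libraries 1, 2 and 3, against 180.1, 179.9 and 192.3 CPM in control libraries 1, 2 and 3 (log2 fold change -0.07 ± 0.03, SE, edgeR adjusted p = 0.147). DNAJC4 lay wholly below its controls, at 12.6 to 14.5 CPM in LARP6 libraries and 14.9 to 15.8 CPM in control libraries (adjusted p = 0.304). DNAJC6, the auxilin that uncoats clathrin vesicles with HSC70, lay wholly above, at 17.7 to 19.4 CPM in LARP6 libraries and 16.2 to 17.6 CPM in control libraries (adjusted p = 0.406). DNAJC8 was at 150.7 to 154.7 CPM in LARP6 libraries and 150.4 to 151.5 CPM in control libraries. The readthrough DNAJC25-GNG10 shares 66.5% of its windows with GNG10, so its 36.5 FPKM cannot be given to the J-domain gene.

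Among the 13 HSPA genes, 12 were tested and 0 were called (1 at an unadjusted p under 0.05, 0 by DESeq2). Of all tested genes 2.43% were higher and 3.60% lower, so 0 of 12 is near the background. DESeq2 gave no adjusted p for HSPA1L, HSPA2, HSPA6 and HSPA12A, so it could not call them. HSPA8 stood at 2247, 2202 and 2177 CPM in LARP6 libraries 1, 2 and 3, against 2294, 2247 and 2225 CPM in control libraries 1, 2 and 3, a change of -2.06% with an interval of -5.30% to 1.29% (edgeR adjusted p = 0.551). HSPA9 (mortalin), the mitochondrial HSP70, was at 369.3 to 372.8 CPM in LARP6 libraries and 363.7 to 375.2 CPM in control libraries, with an interval of -3.45% to 3.89%. HSPA4, an HSP110-like exchange factor, had an estimate of 0.03 ± 0.03 on the log2 scale. HSPA1L, a testis-enriched neighbour of HSPA1A, had the smallest p, at 1.73 to 2.58 CPM in LARP6 libraries and 2.53 to 3.05 CPM in control libraries (log2 fold change -0.37 ± 0.18, SE, edgeR adjusted p = 0.244).

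Of the HSP90 pair 0 were called (0 at an unadjusted p under 0.05, 0 by DESeq2), beside 2.43% higher and 3.60% lower of all tested genes. HSP90AB1 stood at 1853, 1849 and 1888 CPM in LARP6 libraries 1, 2 and 3, against 1892, 1888 and 1903 CPM in control libraries 1, 2 and 3, with an interval of -4.87% to 1.73% (edgeR adjusted p = 0.662). HSP90AA1 stood at 1106, 1045 and 1007 CPM in LARP6 libraries 1, 2 and 3, against 1115, 1050 and 954.5 CPM in control libraries 1, 2 and 3. It varied far more between libraries of a group than its paralog, with a coefficient of variation of 4.74% in LARP6 libraries and 7.75% in control libraries, against 1.17% in LARP6 libraries and 0.417% in control libraries for HSP90AB1. In both groups HSP90AA1 fell from library 1 to library 3. HSPA8 and the summed CPM of the chaperone genes fell in the same order in both groups, while HSP90AB1 did not. Its interval in the reported fit, which has no replicate block, was wide, from -11.5% to 15.9% (edgeR adjusted p = 0.934). With the replicate block its log2 fold change was 0.02 (edgeR adjusted p = 0.585).

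Of HSPD1, HSPE1 and HSPH1 0 were called (0 at an unadjusted p under 0.05, 0 by DESeq2), beside 2.43% higher and 3.60% lower of all tested genes. HSPD1 stood at 483.4, 465.0 and 466.3 CPM in LARP6 libraries 1, 2 and 3, against 485.2, 474.9 and 445.3 CPM in control libraries 1, 2 and 3 (interval -2.99% to 4.46%, edgeR adjusted p = 0.894). Its partner HSPE1, transcribed from the adjacent start in the other direction, stood at 224.1, 225.1 and 214.8 CPM in LARP6 libraries 1, 2 and 3, against 232.2, 226.3 and 228.1 CPM in control libraries 1, 2 and 3. Its groups did not overlap, and the test did not call it (change -3.29%, interval -7.04% to 0.599%, edgeR adjusted p = 0.369). HSPH1 (HSP110) was at 108.9 to 113.8 CPM in LARP6 libraries and 103.4 to 116.4 CPM in control libraries (interval -2.54% to 7.34%, edgeR adjusted p = 0.679).

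The partners of these chaperones were taken from 7 lists that held none of the 73 genes. Of 68 tested genes, 0 rose, 6 fell (8.82%, beside 3.60% of all tested genes) and 62 were not called, with a median log2 fold change of -0.02. DESeq2 called 0 of them higher and 5 lower. The estimated change was under 10% in 64 of the 68. The lists held 8 subunits of the chaperonin TRiC and 6 of prefoldin, which fold actin and tubulin. Of these subunits 0 were called, beside 2.43% higher and 3.60% lower of all tested genes, and 0 had an unadjusted p under 0.05. The smallest p among them was that of CCT2, at 254.8 ± 0.599 CPM in LARP6 libraries and 245.3 ± 3.37 CPM in control libraries (SD, n = 3 each; edgeR adjusted p = 0.267). Of 11 chaperones of the endoplasmic reticulum 0 were called and 3 had an unadjusted p under 0.05, beside 3085 of all 16226 tested genes. SDF2L1 had the smallest p of the 11 (log2 fold change -0.16 ± 0.06, SE, edgeR adjusted p = 0.101).

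Of 11 HSP70 partners 1 fell, BAG6, which triages misplaced membrane proteins (log2 fold change -0.09 ± 0.03, SE, edgeR adjusted p = 0.0182). Of 10 mitochondrial chaperones and proteases 2 fell, the protease subunit CLPP (-0.16 ± 0.03, edgeR adjusted p = 0.000507) and the mitochondrial HSP90 TRAP1 (-0.12 ± 0.04, edgeR adjusted p = 0.0371). In the list of heat shock factors and other stress-response genes, 2 of 7 tested genes fell, the ubiquitin gene UBB (-0.09 ± 0.02, edgeR adjusted p = 0.0145) and the collagen chaperone SERPINH1 (-0.09 ± 0.03, edgeR adjusted p = 0.0269). The shares that fell were 9.09% of the HSP70 partners, 20% of the mitochondrial list and 28.6% of the stress-response list, beside 3.60% of all tested genes. The 6 calls of the partner lists became 2 without LARP6 library 1 or control library 1, 1 without LARP6 library 2 or control library 2, and 0 with the GC and length offset.

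Base composition moved with the calls. The longest transcripts of HSF1, HSPBP1 and HSPB1 had a GC content of 64.7%, 64.7% and 64.3%, ranks 1, 2 and 3 of the 62 tested genes and the only values of 60% or more, while DNAJB14 at 34.3% had the second lowest. For the trend on GC content, log2 CPM was taken relative to each gene's mean over the 6 libraries, across tested genes with a GC value. The slopes (log2, per 10 points of GC) were -0.04, -0.04 and 0.00 in LARP6 libraries 1, 2 and 3. They were 0.02, 0.01 and 0.05 in control libraries 1, 2 and 3. These slopes compare the libraries with their common mean and do not give the dependence on GC within a library. Of the 2328 tested genes with 60% GC or more, 8.81% were lower and 0.601% higher in the LARP6 libraries, with a median log2 fold change of -0.06. Of the 2452 below 40%, 0.163% were lower and 4.98% higher, with a median of 0.06. Across the 62 chaperone genes, which share the 6 libraries, log2 fold change and GC content had a Pearson r of -0.47 and a Spearman rho of -0.58. Across the 16055 tested genes with a GC value the r was -0.22 and the rho -0.33, and both pairs are given as a description.

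With the GC and length offset the 4 calls were lost, at the values given with each gene. In their place DNAJC15, an inhibitor of the mitochondrial respiratory chain with a J-domain, was lower at -0.14 (adjusted p = 0.0479), against -0.05 (0.614) without the offset. The direction of the 4 genes stayed. Because the trend itself differed between the groups, it and a change in these genes cannot be told apart.

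**Figure D4:**
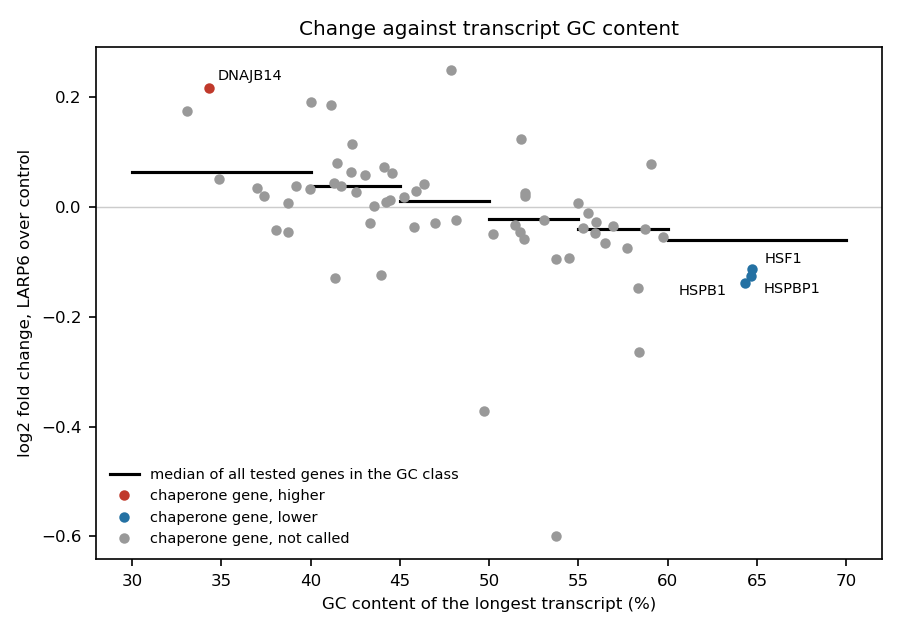
Log2 fold change (LARP6 over control) of each tested chaperone gene against the GC content of its longest GENCODE v29 transcript, with the median of all tested genes in each GC class as black lines. The 3 lower genes sit at the high end of GC content and DNAJB14 near the low end, and the black lines run from 0.064 below 40% GC to -0.061 at 60% or more.

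**Figure D5:**
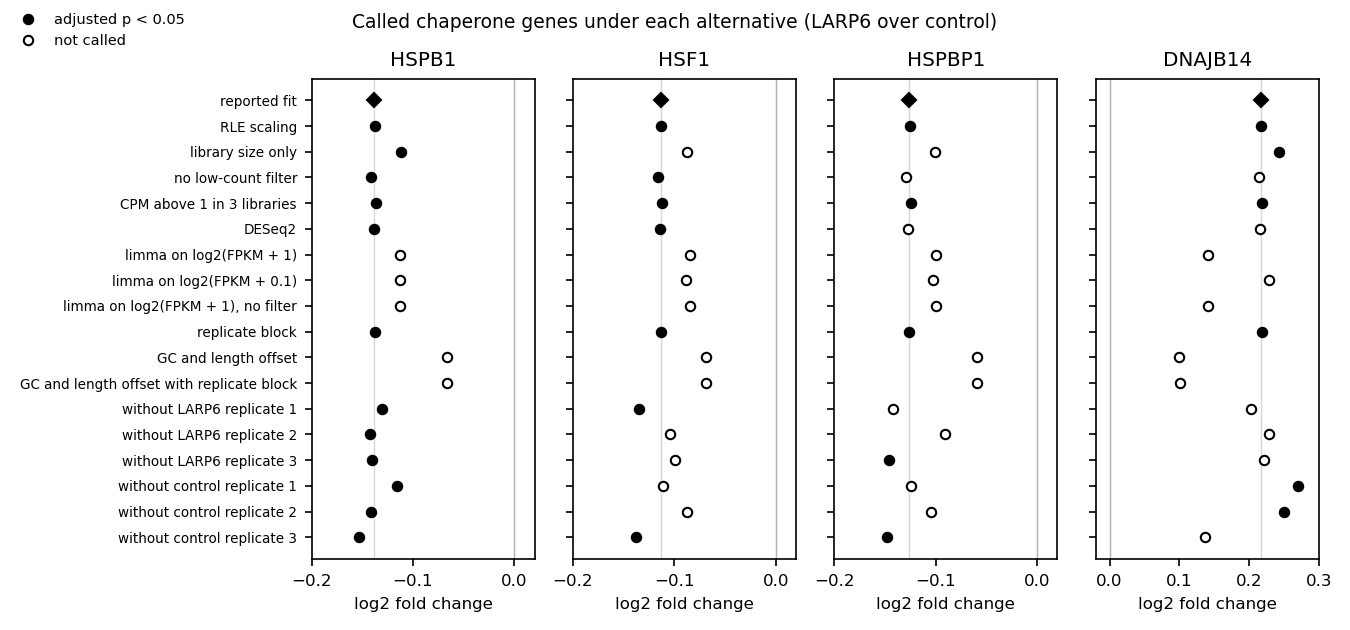
Log2 fold change (LARP6 over control) of the 4 called chaperone genes in the reported fit (diamond) and under each alternative (circles, filled where the adjusted p was below 0.05). The sign is the same in every fit shown, HSPB1 keeps its call when any 1 library is left out, and with the GC and length offset none of the 4 is called.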

How the data were processed

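Read counts and FPKM per gene for the 6 libraries were deposited by the authors, who per the labels' protocols used a strand-specific mRNA kit and sequenced 150 bases from both ends. The submitters' processing notes name HISAT2, DESeq2 and GRCh38 with no version. Which read counter, strand setting and annotation were used was not given in the sources used here. Chaperone genes and all lists were chosen with earlier results of these data known.

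The deposited counts were tested with edgeR 4.0.16 in R 4.3.3 (its expression filter, TMM scaling, robust quasi-likelihood test, no covariate), fitted on the whole table and adjusted by Benjamini-Hochberg over 16226 genes, with calls at an adjusted p below 0.05. Standard errors and 95% intervals come from that fit. The biological coefficient of variation was 3.23%, and the script was tested on simulated data. CPM were computed from the counts, while the deposited FPKM served for levels between genes. GENCODE v29 gave coordinates, GC content and length (97.0% of identifiers matched), and RefSeq gave promoter windows. Shared windows are exact 100-base stretches found in transcripts of another gene.

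The alternatives were RLE scaling, library size only, no low-count filter, CPM above 1 in 3 libraries, DESeq2 1.42.0, limma 3.58.1 on log2 FPKM with pseudocounts of 1 or 0.1, a replicate block, a GC and length offset (mgcv), an adjusted p below 0.01 and each library left out. Named genes were all called genes, 18 chaperones fixed by name, the highest-level gene and the uncalled gene with the smallest p of each subfamily, the 3 uncalled genes without overlap with the smallest p, and up to 3 called genes of each other list, or, in a list with no call, its gene of smallest p. Others that are given were chosen after their values were seen. The result of 1 of the other lists is not reported here.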

Additional observations from a re-analysis of the deposited data

How the results depend on the processing

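Against 395 genes higher and 584 lower over all genes, library size only gave 687 and 303, an adjusted p below 0.01 gave 148 and 295, DESeq2 gave 164 higher, the GC and length offset 169 higher, and that offset with the replicate block 173 higher. Limma gave 24 and 37 on log2 of FPKM plus 1, 26 and 45 on FPKM plus 0.1, and 1 and 2 unfiltered. Leaving out 1 library gave 175 to 398 higher and 281 to 642 lower. Among the chaperone genes (1 higher, 3 lower), 0 were higher with no low-count filter, DESeq2, each limma fit, both offset fits and an adjusted p below 0.01, and 0 to 1 with a library left out. Lower were 1 with library size only, both offset fits or an adjusted p below 0.01, 0 with limma, and 1 to 3 with a library left out. Of the partner genes (0 higher, 6 lower), library size only left 1 higher and 1 lower. Lower were 0 with limma or the offset, 2 with offset and block, 1 at an adjusted p below 0.01, and 1 to 6 with a library left out (0 to 1 higher). Limma on FPKM had few calls in general, so its losses say little about single genes; the cause was not tested. Per kilobase of the longest transcript, HSPA8 over HSP90AB1 was 1.29 against 0.730, HSPA9 over HSPA8 0.0866 against 0.0824, and DNAJB1 over HSPA8 0.129 against 0.0701.

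Deviations from the group mean had weak correlations of 0.0452, 0.0255 and 0.0929 in same-numbered libraries 1, 2 and 3. In differently numbered pairs they ran from -0.0712 to 0.0282. Each LARP6 library correlated best with the control library of its number, while control library 2 correlated slightly better with LARP6 library 1. These values do not settle whether the numbers pair libraries. The labels state no pairing, so the reported fit has no block. With the replicate block 518 genes were higher and 827 lower, the chaperone calls were 1 and 3, and the partner calls 0 and 8. Over 18 alternatives the call was kept in 13 for HSPB1, 7 for HSF1, 6 for DNAJB14 and 5 for HSPBP1. Over the 36 named and tested genes and these alternatives, 0 called results changed sign, 102 pairs of gene and alternative were called only in the reported fit, 1 only in the alternative (CCT2, library size only, adjusted p = 0.0498), and 33 estimates called in neither fit changed sign. Depth limits the genes of a few CPM, such as HSPA6 and HSPA1L, whose intervals reach -39.0% and -39.8%.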
